A study of Mus musculus with 2 samples.

Results

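This account covers 9 genes of mast cells, basophils and eosinophils, taken by name and read through every non-control probe whose RefSeq accession belongs to them. The 9 genes had 10 probes, among 20655 genes with a named probe in all. Cells of the mouse fetal liver at age E13.5 were sorted on the fluorescence ratio F405/F488 into SoNar-high and SoNar-low blood cells. SoNar is a genetically encoded sensor of the balance between NAD+ and NADH in the cytosol, and the sources used here do not say how the cells came to carry it. The strain is given as C57BL/6 for the SoNar-high and as C57BL for the SoNar-low sample, and no allele, treatment, sex or number of pooled embryos is given for either. Total RNA of each population was labelled with Cy3 and hybridised to 1 Agilent array, called the high array and the low array below. With 1 array per group no test could be made, so each value below describes these 2 arrays, and their number limits the precision.

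Mast cells, basophils and eosinophils are granulocytes that store preformed mediators in cytoplasmic granules. Mast cells and basophils carry the high-affinity IgE receptor, release histamine when it is cross-linked, and keep proteases in their granules. Mast cells are marked by chymases and tryptases, mouse basophils by the protease Mcpt8, and eosinophils by toxic cationic proteins such as major basic protein and eosinophil peroxidase. Mast cells and basophils depend on the transcription factor Gata2, and eosinophils on Gata1.

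Signals below are processed spot signals, each with the error that the scanner software attached to the spot. A difference is the log2 signal of SoNar-high minus that of SoNar-low, after the 75th percentile of each array was subtracted (186.5 units for the high and 222.2 units for the low array), so a negative value is lower in SoNar-high cells. The error of a difference combines both spot errors and does not cover variation between animals, sorts or labelling reactions. A probe was called measured where it was well above background on both arrays. Of the 9 genes, 6 were measured on both arrays, 1 was well above background on the high array only, and 2 on neither.

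The genes named for the 3 granulocyte types did not differ alike between the populations, and each type rests on few genes. Basophils alone had 1 gene, Mcpt8, and the genes of mast cells alone read close to background. Mcpt8, the basophil protease, was 4.69-fold lower in SoNar-high cells, whereas Epx, the eosinophil peroxidase, was 2.75-fold higher. Cpa3, the carboxypeptidase of mast cells and basophils, was 1.72-fold lower. Hdc and Prg2 were 1.19-fold and 1.28-fold higher after scaling, and the difference of Tpsb2 was smaller than its error. Among the 6 genes measured on both arrays, 1 was at least 2-fold higher, against 5.28% of all 10223 genes measured on both arrays, and 1 was at least 2-fold lower, against 4.44% of them. The median difference of the 6 genes was 0.20, and that of all genes was -0.08. Fewer cells of a type and less RNA per cell cannot be told apart in such sorted bulk samples.

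**Figure D1:**
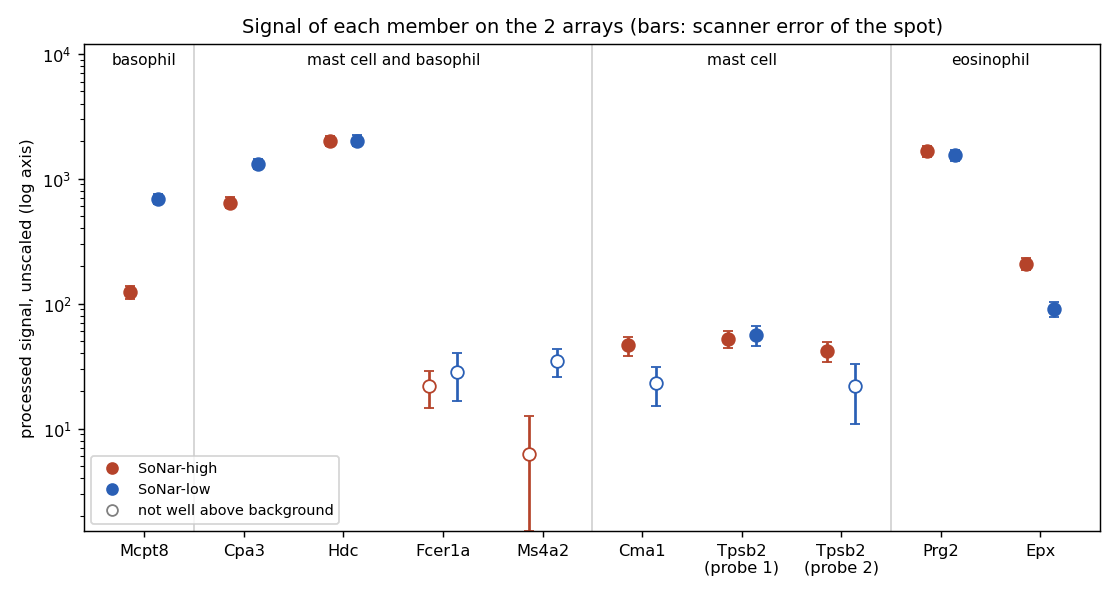
Processed signal of every probe of the 9 genes on both arrays, on a log axis, ordered by granulocyte type. Filled points are well above background, open points are not, and bars are the scanner error of the spot (a bar as long as the signal is drawn to the foot of the axis). Mcpt8 stood at 124 on the high and 692 on the low array, while Epx ran the other way at 209 and 90.8.

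Mcpt8 encodes a serine protease of basophil granules, also known as mast cell protease 8, and lies on chromosome 14. Its probe read 124 ± 13.9 on the high array and 692 ± 69.7 on the low array. The scaled difference was -2.23 ± 0.22, and only 5 of the 10223 genes had a lower one. It was the member with the widest gap between the arrays. After normexp background correction, which works from the uncorrected spot signals, it was -1.88.

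Cpa3 encodes carboxypeptidase A3, which is stored with the proteases in mast cell granules and is also expressed in basophils and their progenitors. The probe read 645 ± 64.8 on the high and 1319 ± 132 on the low array, a difference of -0.78 ± 0.20. It thus ran in the direction of Mcpt8 but stayed within 2-fold, and 9.64% of all measured genes had a lower difference. The gap between Mcpt8 and Cpa3 was -1.45 ± 0.30. Hdc encodes histidine decarboxylase, the enzyme that makes histamine. Its signals were nearly equal before scaling, 2018 ± 202 and 2020.1 ± 202. With the main scaling, its difference of 0.25 ± 0.20 was thus little more than the constant that scales the arrays. Over the 10 other settings the difference of Hdc lay between 0.25 and 0.50, with the highest value after normexp. The histamine-forming enzyme therefore did not follow Mcpt8 or Cpa3: Cpa3 minus Hdc was -1.03 ± 0.29 and Mcpt8 minus Hdc was -2.48 ± 0.30, and a constant that scales an array cancels in both.

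The probes for the 2 chains of the IgE receptor were not clear of background. Fcer1a encodes the alpha chain, which binds IgE, and its probe read 21.7 ± 7.13 on the high and 28.5 ± 11.9 on the low array. Ms4a2 encodes the signal-amplifying beta chain, and its probe read 6.24 ± 6.24 and 34.7 ± 8.86. Neither was well above background on either array, where the dimmest probe that passed read 30.2 on the high and 37.1 on the low array, so no fold is given for either gene. The Ms4a2 probe was above the background by the scanner's weaker test of significance on the low array alone.

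Promoter sequences of Mcpt8, Cpa3 and Epx are shown because these members had the widest differences, the first pair lower and Epx higher in SoNar-high cells. RefSeq promoters of GRCm38.p6 were matched for 7 of the 9 genes, and the 250 bases before the start are printed 5′ to 3′ on the gene's strand, the minus strand for each. Capitals mark matches on either strand to GATAA, the core bound by GATA factors, and to TGTGGT, a core bound by RUNX factors. The windows are chr14:56085198-56085447 for Mcpt8, chr3:20242182-20242431 for Cpa3 and chr11:87875537-87875786 for Epx.
Mcpt8: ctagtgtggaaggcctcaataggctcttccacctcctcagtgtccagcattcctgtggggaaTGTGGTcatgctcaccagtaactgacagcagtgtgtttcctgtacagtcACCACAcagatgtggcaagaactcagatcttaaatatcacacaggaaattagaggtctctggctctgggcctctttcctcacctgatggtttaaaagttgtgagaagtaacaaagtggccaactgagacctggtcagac
Cpa3: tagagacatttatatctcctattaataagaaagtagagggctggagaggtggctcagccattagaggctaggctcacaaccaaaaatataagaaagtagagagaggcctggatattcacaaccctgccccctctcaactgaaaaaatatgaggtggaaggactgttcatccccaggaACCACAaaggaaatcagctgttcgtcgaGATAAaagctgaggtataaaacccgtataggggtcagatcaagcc
Epx: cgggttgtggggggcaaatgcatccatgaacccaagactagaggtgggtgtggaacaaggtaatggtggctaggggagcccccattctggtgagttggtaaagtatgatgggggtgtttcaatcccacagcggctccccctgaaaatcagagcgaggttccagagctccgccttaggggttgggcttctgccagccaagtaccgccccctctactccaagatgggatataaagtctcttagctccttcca
The Mcpt8 window held 2 TGTGGT matches, 1 on each strand and not overlapping, and no GATAA match. The Cpa3 window held 1 of each, with GATAA ending 41 bases before the start. The Epx window held neither. Of 27025 RefSeq promoter windows of the same length, 23% held GATAA and 14.2% held TGTGGT. Among the others, Ms4a2 had 3 GATAA matches, Fcer1a and Cma1 had 1 each and Hdc had none. Of these genes only Fcer1a held a TGTGGT match, ending 9 bases before the start. Matches to TTGCNNAA, a pattern of C/EBP factors found in 9.55% of windows, occurred in Fcer1a only among the 7 genes. The pattern GAGGAA of ETS factors, found in 23.1% of windows, had 1 match each in Mcpt8 and Fcer1a, and CATGTG, a pattern of MITF found in 12.2%, had 1 in Fcer1a. All patterns were searched on both strands and no 2 matches overlapped. A match describes the letters of the window and was not tested as a binding site.

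The probes of the mast cell proteases read close to background. Cma1, the chymase, read 46.3 ± 7.87 on the high array and 22.96 ± 7.90 on the low array, where it was not well above background. Set against the lowest signal that passed there, its bound was 1.49-fold higher in SoNar-high cells, or 0.57 on the log2 scale. That bound does not carry the spot error, and it lay between 0.22 and 0.75 over 7 other settings. Of 1620 genes that passed on the high array only, 12.5% reached a bound of 2-fold, and Cma1 did not. Tpsb2, a tryptase, had 2 probes. The brighter read 52.2 ± 8.30 and 56.3 ± 10.3, a difference of 0.14 ± 0.35 that is smaller than its error and turned negative after quantile normalization (-0.12), in the deposited value table (-0.12) and after normexp (-0.01). The other probe read 41.8 ± 7.54 on the high array and 21.8 ± 10.9 on the low array, where it was not well above background, with a bound of 1.34-fold. The bounds of Cma1 and of the second Tpsb2 probe lie under 2-fold and leave the size of their differences unknown. Tpsb2 has a close paralogue, Tpsab1, whose transcripts its probes may also bind.

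Both eosinophil genes had higher scaled values in SoNar-high cells, but by unequal amounts. Prg2 encodes major basic protein, the core of the eosinophil granule, and read 1668 ± 167 on the high and 1552 ± 155 on the low array. Its difference was 0.36 ± 0.20. Epx read 209 ± 21.8 and 90.8 ± 12.2, a difference of 1.46 ± 0.25, which 1.98% of measured genes exceeded. The difference of Epx exceeded that of Prg2 by 2.15-fold (scanner error 0.32 on the log2 scale), a gap between genes of the same granule. After normexp correction Epx was under 2-fold, at 0.85, and Prg2 stood at 0.22.

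**Figure D2:**
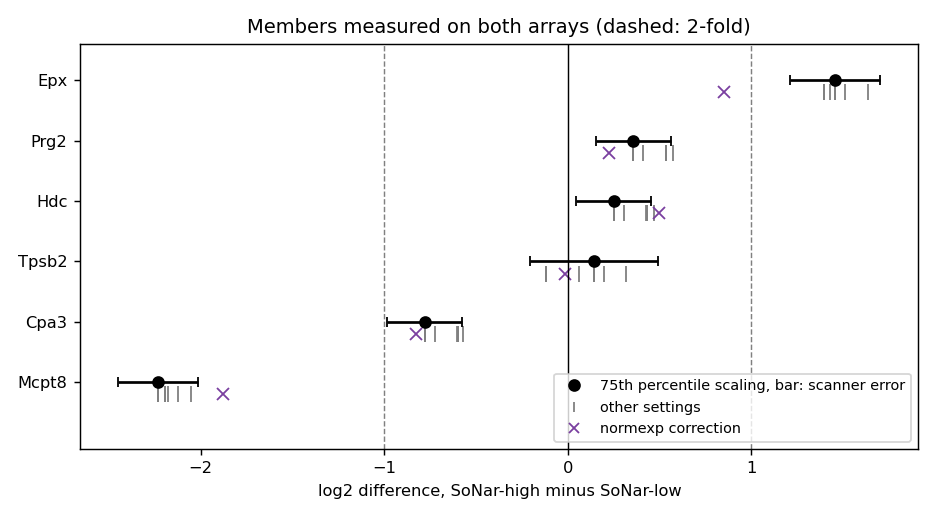
Log2 difference of the 6 genes measured on both arrays, with bars for the scanner error, ticks for the other processing settings and crosses for normexp correction. Mcpt8 stayed between -2.23 and -1.88 and Cpa3 between -0.83 and -0.57 across the settings that gave them a value, while Epx ranged from 0.85 to 1.64.

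Between genes of different types, the difference of Mcpt8 minus that of Epx was -3.69 ± 0.33 (log2), or 12.9-fold, and Mcpt8 minus Prg2 was -2.59 ± 0.30. Cpa3 minus Epx was -2.24 ± 0.32. A constant that scales an array cancels in these gaps. The gap between Mcpt8 and Epx lay between -3.69 and -2.73 over the 9 other settings that measured both genes, which leaves out a signal of at least 100, and that between Mcpt8 and Prg2 between -2.73 and -2.10 over 10. The gap between Hdc and Prg2, -0.10 ± 0.29, was smaller than its error, as were those of Hdc and of Prg2 to Tpsb2. By the scanner error alone, the order from lowest to highest ran Mcpt8, Cpa3, then Tpsb2, Hdc and Prg2 without separation, then Epx. That error covers no variation between animals, sorts or labelling reactions, and Tpsb2 was placed by a probe close to background. After normexp, Epx (0.85) stood nearer to Hdc (0.50).

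**Figure D3:**
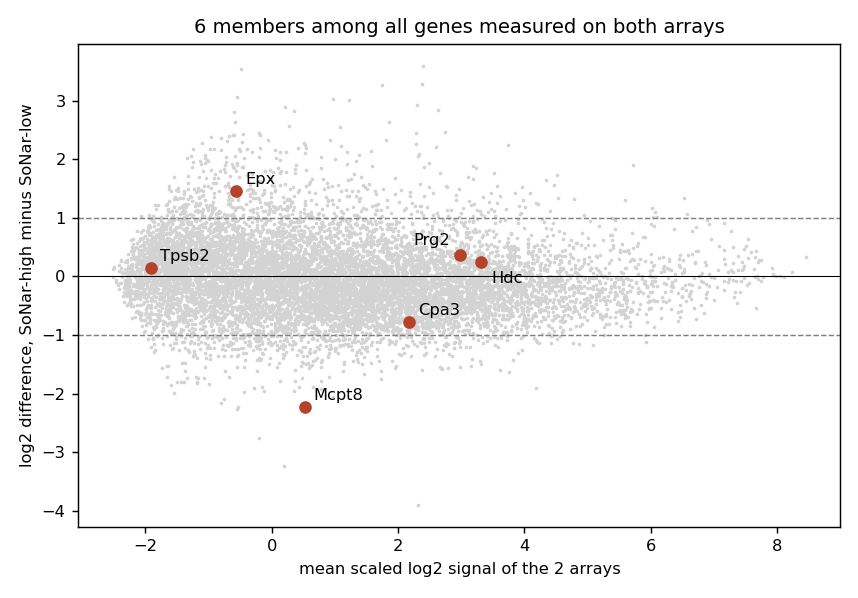
Each grey point is 1 of 10223 genes measured on both arrays, by its mean scaled log2 signal and its log2 difference, with dashed lines at 2-fold and the 6 genes in colour. Mcpt8 lies at the lower edge of the cloud at -2.23, Epx above the 2-fold line at 1.46, and the other 4 between the lines.

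Several members lie beside relatives on their chromosomes, a set of neighbours chosen after their values were seen. Mcpt8 and Cma1 belong to the chymase and granzyme cluster of chromosome 14, where 15 protein-coding genes run from Cma1 to Gzmb. Of these, 4 were measured on both arrays, 2 on the high array only, 1 on the low array only and 8 on neither. Gzmb, a cytotoxic granzyme that mast cells and natural killer cells can express, read 62.6 and 504, a difference of -2.76 that was -1.85 after normexp. Mcpt8 and Gzmb were the only 2 genes of the cluster at least 2-fold lower. Ctsg, cathepsin G of neutrophil and mast cell granules, is the gene next to Mcpt8 and read 10862 and 12934, a difference of 0.00. Cma2, next to Cma1, had 0.24. A further granzyme, Gzmc, was well above background on the low array only, with a bound of 1.59-fold higher there. Of 152 such genes, 22.4% reached a bound of 2-fold.

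**Figure D4:**
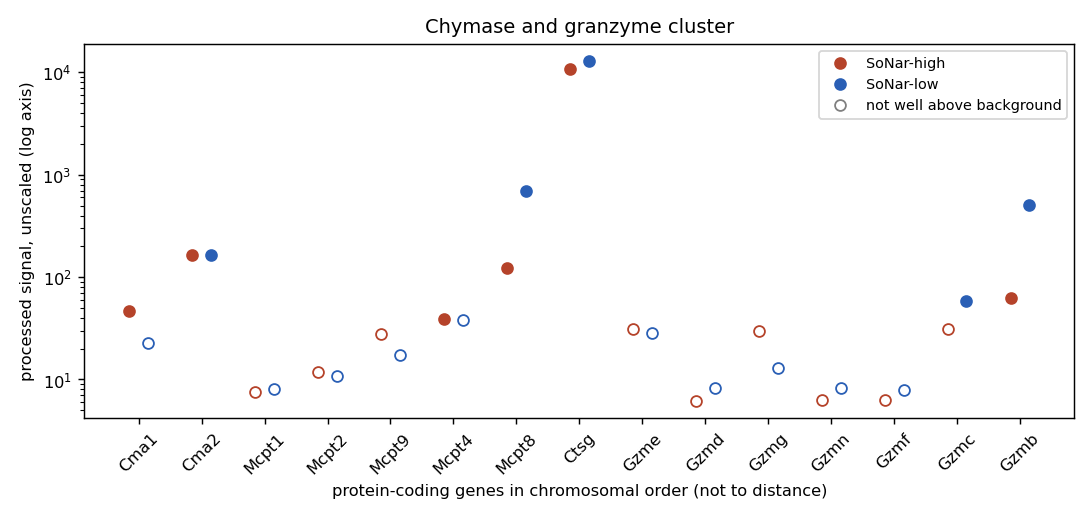
Processed signal of the 15 genes of the chymase and granzyme cluster on both arrays, on a log axis and in chromosomal order without distance. Open points are not well above background. Only Mcpt8 and Gzmb show a gap of at least 2-fold among the genes measured on both arrays, and Ctsg between them reads 10862 and 12934.

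In the tryptase cluster of chromosome 17, Prss34, a protease that basophils express, read 319 and 654, and Prss28 read 65.1 and 134, each with a difference of -0.79, whereas Tpsb2 in the same cluster had 0.14. Epx lies on chromosome 11 near its relatives Mpo and Lpo, the myeloperoxidase and lactoperoxidase genes. Mpo had 0.11 and Lpo 0.25, both within 2-fold, against 1.46 for Epx. Prg3, the paralogue next to Prg2 on chromosome 2, had 0.35, close to the 0.36 of Prg2. Ms4a3, the neighbour of Ms4a2 on chromosome 19 and a gene of granulocyte progenitors, was measured on both arrays with -0.48.

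Lists of genes that work with the members were then read in the same way. Basophil surface and cytokine genes had 8 of 12 listed genes measured on both arrays, of which 3 were at least 2-fold lower and none at least 2-fold higher, with a median of -0.75. Itga2, Il13 and Cyp11a1 passed on neither array and Cd200r4 on the low array only. Il6, a cytokine that basophils and mast cells can secrete, read 353 and 1288, a difference of -1.61. Cd200r3, an activating receptor of basophils and mast cells, read 65.2 and 181, a difference of -1.22. Il3ra, the alpha chain of the receptor for interleukin 3, read 141 and 375, a difference of -1.15. After normexp correction Il6 stayed beyond 2-fold at -1.28, but Cd200r3 (-0.47) and Il3ra (-0.78) did not. Csf2rb, the common beta chain that signals for interleukin 3 and interleukin 5, read 3400 and 3404 before scaling, a difference of 0.25, so that of these chains only the alpha chain passed 2-fold.

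Mast cell and basophil serine proteases had 12 of 13 listed genes on the array and only 4 measured on both arrays. Of these, 1 was at least 2-fold lower, Gzmb, and the median was -0.79. That median was 0.08 when dim probes were kept. Receptors and granule storage genes of mast cells had 13 of 18 measured, with 1 at least 2-fold higher, 1 at least 2-fold lower and a median of 0.36. Alox5, the lipoxygenase that starts leukotriene synthesis, had 1.29, and its activating protein Alox5ap had 0.98. Rab27b, a GTPase of granule release, had -1.20 on its brighter probe and -0.27 on the other, and was at -0.58 after normexp. Milr1, an inhibitory receptor of mast cells, read 41444 and 37043, a difference of 0.41. Kit, the stem cell factor receptor that mast cells need, had -0.15, a sign that turned under 4 of 10 other settings. Il1rl1 read 357 and 723, a difference of -0.77 that stayed negative under all 10 other settings. Slc18a2 was dim on the high array, with signals of 47.2 and 102, and had -0.86 (-0.47 after normexp). The list thus ran in both directions, with 8 measured genes above 0 and 5 below 0.

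The signalling genes of the IgE receptor had 13 of 16 measured, with 2 at least 2-fold higher, 1 at least 2-fold lower and a median of 0.29. Fcer1g, the gamma chain shared with other Fc receptors, read 6731 and 2555, a difference of 1.65, while the alpha and beta chain probes were not well above background. Rasgrp4, a Ras exchange factor of mast cells, had 1.69, and Lat2, an adaptor of the receptor that B cells also express, had -1.30. Plcg2, a phospholipase of the pathway, read 5368 and 5322, a difference of 0.27. Fcer1g (1.63), Rasgrp4 (1.02) and Lat2 (-1.23) stayed beyond 2-fold after normexp.

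Eosinophil genes had 11 of 14 listed genes measured, all within 2-fold, with 9 above 0, 2 below 0 and a median of 0.57. Over the other settings that median ranged from 0.27 to 0.75. The eosinophil-associated ribonucleases were all above 0, with Rnase2a at 0.89, Ear6 at 0.84, Ear10 at 0.82, Ear1 at 0.65 and Ear2 at 0.57. These ribonucleases are close copies whose probes can share targets, so they are not separate measurements. S100a10, an annexin partner that many cells express, had -0.99, and Siglecf, an inhibitory receptor of eosinophils, had -0.23. Il5ra, the interleukin 5 receptor, had 0.58 at dim signals of 51.9 and 41.4. Ccr3, also dim at 48.0 and 53.1, had 0.11, a sign that turned under 2 of 9 other settings. At least 2-fold higher were 3 genes of the list after loess, 2 after scaling on detected probes and 1 after quantile normalization or in the deposited table, and after normexp 1 was at least 2-fold lower, S100a10.

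Transcription factors of these lineages had 19 of 20 measured, with 1 at least 2-fold higher, 2 at least 2-fold lower and a median of -0.17, a sign that turned when a gene was read by the median over its probes (0.08) or scaled on detected probes (0.01). Ikzf2, the Ikaros family member Helios, had -1.74 (-1.13 after normexp), Irf8, a factor of monocyte and basophil progenitors, had -1.21, and Spi1, the ETS factor PU.1, had 1.13 (0.58 after normexp). Cebpb, a C/EBP factor of myeloid cells, had 0.32. Outside the rule and chosen after their values were seen, further factors known in these lineages ran in both directions. Gata2, which basophils and mast cells need, had -0.82, Gata1, which eosinophils need, had 0.38, and Mitf, which mast cells need, had 0.08, a sign that turned under 3 of 9 other settings. Cebpa, a factor of early granulocyte progenitors, had -0.83 at dim signals of 48.9 and 103, and -0.29 after normexp. Cebpe, which eosinophils and neutrophils need, had 0.86, and 0.77 after normexp. Runx1 and Stat5a, which act in many blood lineages, had -0.77 and -0.70.

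**Figure D5:**
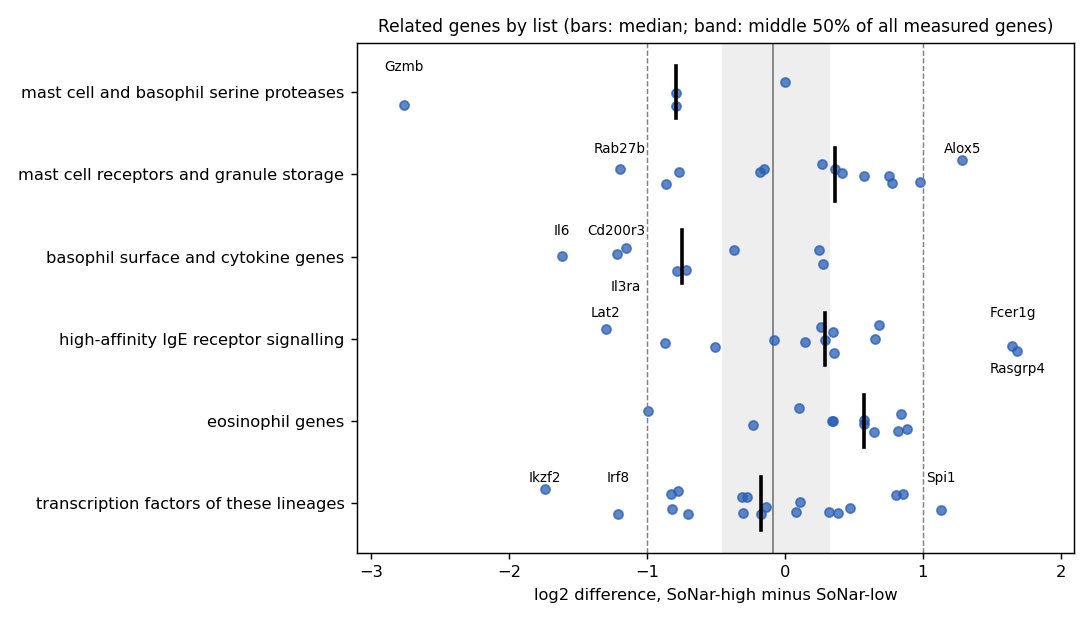
Log2 difference of every measured gene in the 6 lists of related genes, with black bars for list medians, the grey line and band for the median and middle 50% of all measured genes, and names for genes past 2-fold (dashed). The basophil list has its median at -0.75 and the eosinophil list at 0.57.

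Markers of other cells differed between the same arrays, with Ctsg and Kit also in the lists above. The shares over all genes measured on both arrays were 5.28% higher and 4.44% lower. Natural killer and cytotoxic markers had 3 of 4 measured genes at least 2-fold lower in SoNar-high cells, and Nkg7 at 0.22. Their summed signal was 1656 against 6713. Klrb1c, Ncr1 and Tbx21 passed on neither array, Prf1 and Eomes on the high array only, and Il2rb on the low array only. B lymphoid markers had 6 of 9 lower (4493 against 15866) and stem and multipotent progenitor markers 3 of 9 lower and 1 higher (10108 against 17499.6). Macrophage markers had 8 of 9 at least 2-fold higher (18999 against 8595) and late neutrophil granule markers 5 of 9 (164699 against 117199). The primary granule markers of neutrophil progenitors were all within 2-fold (61158 against 64883), with 4 of 5 above 0 and a median of 0.08 after scaling. Erythroid markers, which check the tissue label, had 9 of 10 genes measured on both arrays and 7 at least 2-fold higher (15458 against 7742). All 6 hepatic markers measured on both arrays, of 8 listed, were at least 2-fold higher (13253 against 4777), as were 4 of 5 endothelial markers (3747 against 1011). The part of these cells in the differences of the 9 genes was not tested.

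How many genes passed 2-fold in each direction depended on the scaling, since 540 were higher and 454 lower with the 75th percentile of all spots, 817 and 227 with that of detected probes and 649 and 348 after loess. The median of all genes moved by 0.18 and 0.10 under these 2 settings. Mcpt8 and Cpa3 kept a negative sign, and Epx, Prg2 and Hdc a positive one, under every setting that gave them a value. Spots on the high array were well above background in 49.4% and on the low array in 42.4% of 43020 cases, and none was saturated.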

How the data were processed

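Spot intensities were deposited by the authors as Agilent Feature Extraction output (11.0.1.1 per the file headers, 9.1 per the submitters' processing notes), whose processed signal is background-subtracted. The deposited value table is on the log2 scale, and the sources used here do not say how it was normalized. Its sorted columns differ by at most 0.000544 and share a median of 4.80, the pattern that quantile normalization gives. Its differences correlated at 0.966 with those of the scanner signals. It served as an alternative, but gave nearly the values of the quantile setting and is not independent of it.

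Control spots and outlier spots (225 and 135) were left out, log2 signals were scaled to the 75th percentile of each array, and spots of a probe were averaged. Probes were named through their accessions in a RefSeq table of GRCm38.p6, used for names and neighbours only. A gene took its brightest measured probe. Where 1 array passed, its signal was set against the dim signal itself or, if higher, the lowest passing signal of the other array, which gives a bound. Spots of 213 probes printed 10 times gave log2 differences with an SD of 0.15 (median over probes), and of 0.21 under 100 units.

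Named genes were all 9 members, and in each related list the 3 with the largest difference and the brightest. Outside this rule, Kit, Il1rl1, Slc18a2, Ear1, Ear10, Siglecf, Il5ra, Ccr3, the gene neighbours and the further transcription factors were also named. Members and lists were chosen with earlier results of these data known. The counting code was run on simulated data with planted differences beyond 2-fold and small noise, without variation between samples. Their recovery was set in advance and bears on the code only. Normexp (offset 50, limma 3.58.1) used median spot signals, since no mean was given. Both other scalings, quantile normalization, loess (span 0.3), the value table, no filter, a signal of at least 100, the median over probes, outlier spots kept and 3-fold were also run. The gene neighbours were added after seeing the data.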

Additional observations from a re-analysis of the deposited data

How the results depend on the processing

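No paired analysis was possible because each group has 1 array. The count of the 9 genes at least 2-fold higher was 0 after normexp, with a signal of at least 100 (which leaves Epx out) and at 3-fold. It was 2 with dim probes kept, where 2 were lower. That setting added Cma1 and Ms4a2, neither well above background on both arrays. Among all 10223 genes, 251 were higher and 257 lower after normexp. These counts were 817 and 227 with the 75th percentile taken over detected probes, and 146 and 48 at 3-fold. A signal of at least 100 left 7800 genes, of which 329 were higher and 314 lower. With dim probes kept, 2476 of 20655 genes were higher and 659 lower. Tpsb2 turned to -0.014 after normexp, -0.12 after quantile normalization and -0.12 in the deposited table. The median of the transcription factors turned to 0.0080 with detected probes and 0.084 with the median over probes, and that of the serine proteases to 0.077 with dim probes kept. The causes of these changes were not tested. A filter leaves fewer or more genes, and the normexp offset shrinks the log2 differences of dim probes by construction. Signal over background limits Cma1, Tpsb2, Fcer1a and Ms4a2.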
